A study of Mus musculus with 8 samples.

Results

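The replication-dependent histone genes of the mouse were followed through RNA precipitates of Dazl, which binds RNA in germ cells and is needed for their development. The members were all genes whose name on the array starts with Hist, a digit and the letter h, which gave 34 genes of 27962 gene names and 44 probes of 41174. Of the 34 genes, 6 encode the linker histone H1, 11 encode H2A, 8 encode H2B, 3 encode H3 and 6 encode H4. A total of 31 were measured, meaning that some group had a probe well above background on each of its 2 arrays. These were all 6 H1 genes, 9 H2A, 7 H2B, all 3 H3 and all 6 H4 genes. Hist1h2ac, Hist1h2ae and Hist1h2be were not measured, since no probe for them passed that filter.

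The RNA came from testes of male mice of a mixed C57BL/6 129SV background at postnatal day 14, with germ cells that express Dazl fused to GFP and V5. All 4 groups carry this fusion and each has 2 arrays. They are total RNA before precipitation (input), a mock precipitate with normal mouse IgG (IgG), the precipitate obtained with anti-V5 (V5) and the one obtained with anti-GFP (GFP). Lysates were not crosslinked with ultraviolet light. For the GFP group the series text has anti-PABP1, and the sample labels, which have anti-GFP, were followed. Counting this group as a Dazl precipitate rests on those labels. Input replicate 2 is described as precipitated RNA and V5 replicate 1 as total RNA, against their titles, and the titles were followed. Input and IgG arrays shared slide 1, and V5 and GFP arrays shared slide 2, so that for V5 or GFP against IgG or input, slide and group cannot be told apart. The other comparisons, of IgG with input and of V5 with GFP, were made inside 1 slide. No label ties the 2 arrays of a group to different animals. The p-values here set a difference between groups against the spread between arrays of a group, shared over all 4 groups. That spread may be technical, so the p-values speak for these samples only.

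Replication-dependent histone genes supply the nucleosomes of S phase. Their mRNAs normally lack a poly(A) tail and end in a stem-loop bound by the protein Slbp, although some of these genes also give polyadenylated transcripts in cells that no longer divide. H2A, H2B, H3 and H4 form the core of the nucleosome, and H1 binds the DNA that enters and leaves it. The testis has its own members: Hist1h1t encodes the linker H1t of spermatocytes, Hist1h2ba encodes TH2B and Hist1h2aa encodes TH2A.

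The genes lie in clusters, 24 on chromosome 13, 6 on chromosome 3, 3 on chromosome 11 and 1 on chromosome 6 in RefSeq for GRCm38.p6. By accession 31 matched a RefSeq gene and by an older symbol 3 did, namely Hist1h4i, Hist2h2aa2 and Hist3h2bb. RefSeq now lists Hist3h2bb as a transcribed pseudogene. For these 3 genes the link from probe to RefSeq gene, and to any promoter, rests on the name alone. Hist1h4i and Hist2h2aa2 were also the only H4 and H2A genes called higher than input in the precipitates. Promoter stretches of 6 members are shown because 3 of these genes (Hist1h3d, Hist2h3c1 and Hist1h4i) were the ones higher in both Dazl precipitates than in IgG, Hist2h2aa1 is the neighbour of Hist2h3c1 and moved the other way, and Hist1h2ba and Hist1h2aa are the testis pair, which are transcribed away from each other. Each holds the 120 bases before the start of transcription, from RefSeq, 5′ to 3′ on the gene's strand, with the CCAAT box, the TATAAA box and the motif AAACACA in capitals wherever found on either strand.
Hist1h3d, chr13:23575643-23575762, plus strand: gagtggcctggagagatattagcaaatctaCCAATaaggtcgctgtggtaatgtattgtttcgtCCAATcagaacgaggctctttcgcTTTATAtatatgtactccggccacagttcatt
Hist2h3c1, chr3:96246565-96246684, plus strand: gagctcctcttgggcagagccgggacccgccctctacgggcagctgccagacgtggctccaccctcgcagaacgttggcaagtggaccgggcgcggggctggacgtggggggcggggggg
Hist1h4i, chr13:22041363-22041482, minus strand: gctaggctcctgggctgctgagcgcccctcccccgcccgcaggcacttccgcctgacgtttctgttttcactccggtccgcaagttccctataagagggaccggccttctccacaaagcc
Hist2h2aa1, chr3:96245377-96245496, plus strand: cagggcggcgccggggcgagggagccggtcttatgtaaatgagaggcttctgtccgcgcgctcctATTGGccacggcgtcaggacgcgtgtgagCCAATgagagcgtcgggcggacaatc
Hist1h2ba, chr13:23934157-23934276, minus strand: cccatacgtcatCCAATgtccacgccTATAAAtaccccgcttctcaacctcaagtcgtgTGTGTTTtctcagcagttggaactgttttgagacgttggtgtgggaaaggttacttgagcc
Hist1h2aa, chr13:23934317-23934436, plus strand: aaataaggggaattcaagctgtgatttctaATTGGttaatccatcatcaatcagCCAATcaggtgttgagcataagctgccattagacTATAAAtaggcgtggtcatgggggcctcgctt

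A promoter was listed for 29 of the members, and 4 motifs were searched in the 250 bases before each start, on both strands. CCAAT was found in 86.2% of these histone promoters against 37.5% of all 27025 genes with a promoter of this length. TATAAA was found in 55.2% against 14.3%. The octamer ATTTGCAT was found in 34.5% against 1.81%, in 6 of 11 H2A and 4 of 5 H2B promoters and in none of the other 13. AAACACA was found in 31% against 7.2%, including 5 of the 6 H1 promoters. Of the 3 genes that were higher in both Dazl precipitates than in IgG, Hist1h3d held CCAAT and TATAAA, Hist1h4i held TATAAA and Hist2h3c1 held none of the 4. These matches describe letters only.

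Levels are given as multiples of the 75th percentile of the signal of all non-control spots on the same array, a scaled signal that can be compared between arrays but not between probes. On each array 36 or 37 of the 44 histone probes were well above background and none was saturated, as were 57.2% to 62.2% of all spots. The median absolute log2 difference between the 2 arrays of a group over the histone genes was 0.0975 (input), 0.098 (IgG), 0.108 (V5) and 0.105 (GFP), against 0.0768, 0.159, 0.0924 and 0.0852 over all genes. Members of a class are nearly identical in coding sequence and the probes' letters were not used here, so a probe may read several copies.

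Against the IgG mock, 2 of the 3 H3 genes and 1 of the 6 H4 genes were higher in both Dazl precipitates, while H1 and H2A genes were mostly lower. In V5, 3 of the 31 histone genes were higher and 13 lower, where 16.7% of all 17580 genes were higher and 40.4% lower. In GFP, 3 were higher and 22 lower, where 21.6% of all genes were higher and 52.1% lower. A call means an adjusted p under 0.05 by limma over all genes, and both comparisons share the IgG arrays. The median log2 difference of the histone genes, -0.229 in V5 and -0.318 in GFP, was close to that of all genes, -0.206 and -0.325. As a set the histone genes therefore lay near the array's own middle, and the classes differed around it. Scaling to the spike-in probes raised the median of all genes to 0.158 in V5 and 0.149 in GFP, and with it 87.1% and 76.2% of the calls over all genes were higher in place of 29.3% and 29.3% (39.5% in V5 with quantile normalization). The counts of lower genes rest on few arrays: without V5 replicate 2 they were 6 in V5, without GFP replicate 2 they were 13 in GFP, and without the 2 arrays of conflicting description 1 gene was higher and 1 lower in V5. With normexp background correction 0 histone genes were called by limma in V5 (3 at an unadjusted p under 0.05), and 0 of all 17580 genes. In GFP 2 histone genes were then higher and 0 lower (5 at an unadjusted p under 0.05). Because of the shift with scaling, directions for single classes are given below also relative to the median of all genes.

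**Figure D1:**
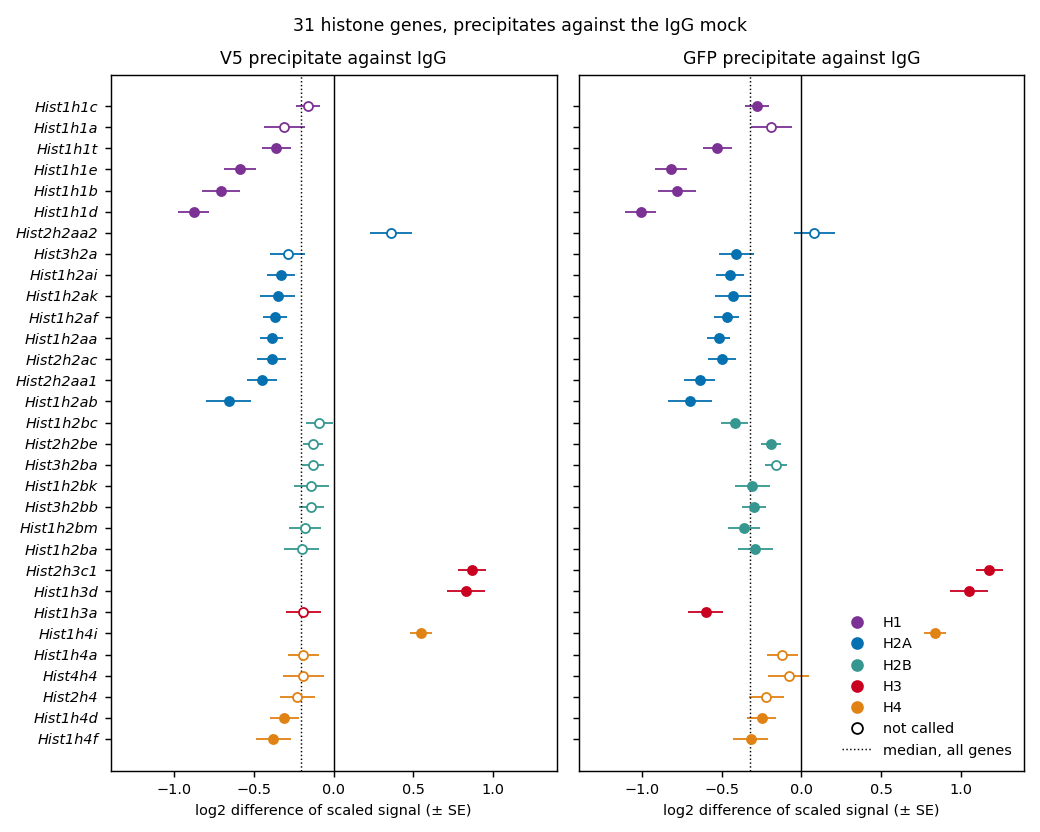
Log2 difference of scaled signal (x axis, ± SE) of the 31 measured histone genes (y axis, coloured by class) in V5 and GFP against IgG, with 2 arrays a group. Filled points were called by limma, open points were not, and the dotted line is the median of all genes. Hist2h3c1, Hist1h3d and Hist1h4i stand to the right at 0.55 to 1.18, also with spike-in scaling, while most H1 and H2A genes stand to the left of 0, where with spike-in scaling the H2A median was 0.

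Hist1h3d, an H3 gene of the large chromosome 13 cluster, read 83.6 and 96.1 on the input arrays, 80.1 and 86.8 on IgG, 151 and 145 on V5, and 190 and 158 on GFP. Both V5 and both GFP arrays were above every input and IgG array, and input and IgG overlapped. It was 1.77-fold higher in V5 than in IgG (log2 difference 0.83 ± 0.12 SE, n = 2 arrays a group, limma adjusted p = 0.00327) and 2.08-fold higher in GFP (1.05 ± 0.12, adjusted p = 0.000473). Among all genes these differences ranked at the 95.6 and 94 percentile.

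Hist2h3c1, an H3 gene of the chromosome 3 cluster, read 140 and 150 on input, 123 and 127 on IgG, 232 and 225 on V5, and 305 and 265 on GFP. The order IgG, input, V5, GFP held without overlap between any of the groups, although the step from IgG to input was not called. Against IgG it was 1.83-fold higher in V5 (log2 difference 0.87 ± 0.087 SE, limma adjusted p = 0.0014) and 2.27-fold higher in GFP (1.18 ± 0.087, adjusted p = 0.000164). Both H3 genes kept the same sign and were called with spike-in scaling, at 1.19 and 1.23 in V5 and 1.53 and 1.66 in GFP.

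Hist1h4i, which encodes H4, read 0.626 and 0.597 on input, 1.16 and 1.11 on IgG, 1.72 and 1.61 on V5, and 2.05 and 2.01 on GFP. Its 4 groups did not overlap, and unlike the H3 genes it was already higher in IgG than in input (log2 difference 0.9 ± 0.07 SE, limma adjusted p = 4.85e-05). Against IgG it was 1.46-fold higher in V5 (0.55 ± 0.07, adjusted p = 0.0026) and 1.79-fold higher in GFP (0.84 ± 0.07, adjusted p = 0.000231). Without the 2 arrays of conflicting description, Hist1h3d at 0.79 and Hist1h4i at 0.5 were no longer called in V5 against IgG (adjusted p = 0.0555 and 0.0607), and Hist2h3c1 at 0.85 was (0.0436). With normexp background correction none of the 3 was called in V5 against IgG, at 0.73, 0.82 and 0.46 (adjusted p = 0.206, 0.169 and 0.175 for Hist1h3d, Hist2h3c1 and Hist1h4i), and in GFP Hist2h3c1 at 1.15 and Hist1h4i at 0.7 were called (0.0309 and 0.0299) while Hist1h3d at 0.96 was not (0.0546).

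The remaining H3 gene, Hist1h3a, was on the other side. It read 0.113 and 0.119 on input, 0.142 and 0.126 on IgG, 0.107 and 0.128 on V5, and 0.0878 and 0.0889 on GFP. GFP was the lowest group and did not overlap with the others, while V5 overlapped with both input and IgG. The log2 difference was -0.60 ± 0.11 SE in GFP against IgG (limma adjusted p = 0.00257) and -0.19 ± 0.11 in V5, which was not called (adjusted p = 0.169). With normexp no histone gene was called lower in GFP against IgG, and with spike-in scaling only 2 genes, both H1, were. The V5 value of Hist1h3a turned to 0.17 with spike-in scaling and to 0.02 with normexp. Its GFP difference from input, -0.39, turned to 0.33 with normexp and was not called. The H3 median was 0.83 in V5 and 1.05 in GFP, or 1.03 and 1.38 relative to the median of all genes, and it rests on the other 2 H3 genes, since the 3 did not move as a class.

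**Figure D2:**
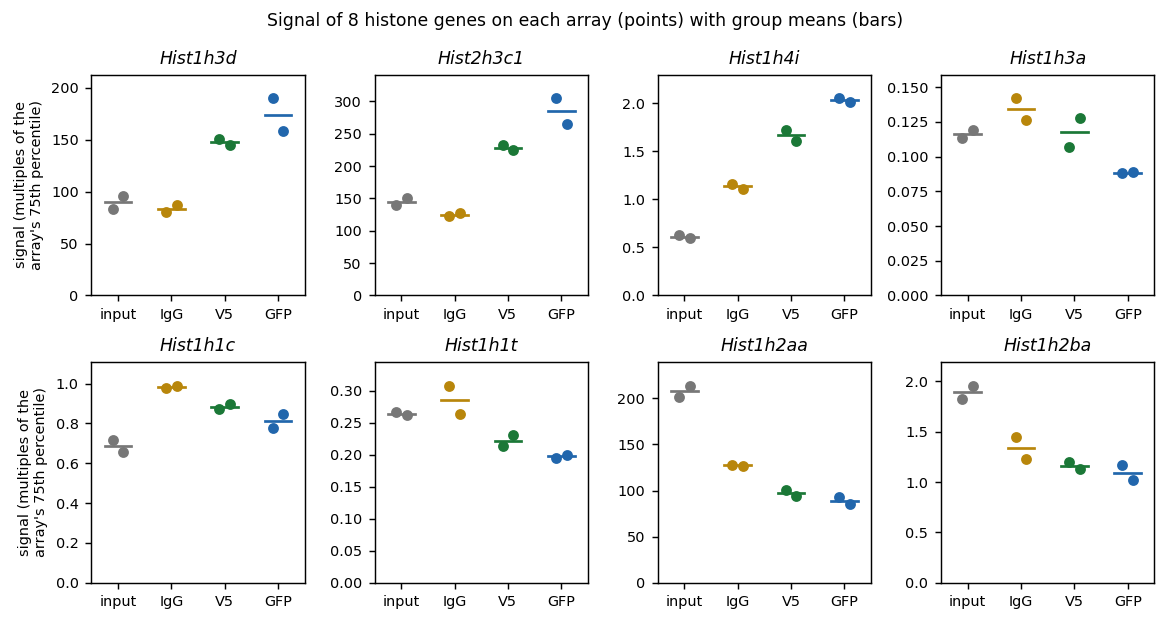
Scaled signal of 8 histone genes (y axis from 0, in multiples of the array's 75th percentile, a separate scale for each gene) on the 2 arrays of each group (x axis), with points for arrays and bars for means. Hist1h3d rose from 80.1 and 86.8 on IgG to 190 and 158 on GFP, while Hist1h2aa fell from 202 and 214 on input to 92.5 and 85.8 on GFP.

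Among the linker genes, 4 of 6 fell in V5 and 5 of 6 in GFP against IgG, where 40.4% and 52.1% of all genes were lower. The H1 medians were -0.478 and -0.658. Relative to the median of all genes these were -0.27 and -0.33, and with spike-in scaling the class medians stayed below 0, at -0.11 and -0.18, with 1 and 2 genes called lower. Hist1h1d, a somatic H1, read 0.0553 and 0.0539 on input, 0.0576 and 0.0596 on IgG, 0.0327 and 0.0311 on V5, and 0.0264 and 0.0318 on GFP. V5 and GFP lay below both IgG and input without overlap, and the fall against IgG was 1.84-fold in V5 (log2 difference -0.88 ± 0.099 SE, limma adjusted p = 0.00185) and 2.02-fold in GFP (-1.01 ± 0.099, adjusted p = 0.00034). These were the lowest values of any histone gene in both comparisons, at the 6.32 and 6.81 percentile of all genes. Its signal is a few hundredths of the 75th percentile, and with normexp its difference against input turned from -0.78 to 0.56 in V5 and from -0.91 to 0.44 in GFP, neither called.

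Hist1h1e read 0.921 and 0.878 on input, 0.828 and 0.868 on IgG, 0.515 and 0.614 on V5, and 0.461 and 0.501 on GFP. Like Hist1h1d it did not differ by the test between IgG and input (-0.08 ± 0.1, limma adjusted p = 0.475) and was lower in V5 (-0.59 ± 0.1, adjusted p = 0.0054) and GFP (-0.82 ± 0.1, adjusted p = 0.000665). Hist1h1b read 0.241 and 0.218 on input, 0.132 and 0.103 on IgG, 0.0688 and 0.0738 on V5, and 0.0675 and 0.0681 on GFP, so that it fell both from input to IgG and from IgG to the Dazl precipitates (-0.71 in V5 and -0.78 in GFP). Hist1h1a read 1.22 and 1.2 on input, 0.683 and 0.522 on IgG, 0.453 and 0.515 on V5, and 0.52 and 0.527 on GFP. It was 2.03-fold lower in IgG than in input, and its further differences against IgG, -0.31 and -0.19, were not called.

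Hist1h1c, which encodes a linker histone found in most somatic tissues, was the only H1 gene higher in every precipitate than in input, though with spike-in scaling its difference against input turned to -0.27 in IgG, -0.06 in V5 and -0.08 in GFP. It read 0.714 and 0.657 on input, 0.979 and 0.99 on IgG, 0.87 and 0.898 on V5, and 0.775 and 0.846 on GFP. The IgG arrays were the highest, and GFP was lower than IgG by 0.28 on the log2 scale (limma adjusted p = 0.0148), while V5 was not called. Without GFP replicate 1 the difference of GFP from IgG was -0.22 and not called (adjusted p = 0.0954), and the rise of GFP over input, 0.24, was 0.18 and not called without input replicate 2 or GFP replicate 2 (adjusted p = 0.153 and 0.155).

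The testis members were lower in the Dazl precipitates or were not called. H1t (Hist1h1t) read 0.266 and 0.262 on input, 0.308 and 0.264 on IgG, 0.213 and 0.23 on V5, and 0.195 and 0.2 on GFP. Input and IgG overlapped, V5 and GFP lay below both, and the fall against IgG was 1.29-fold in V5 (log2 difference -0.36 ± 0.091 SE, limma adjusted p = 0.0162) and 1.45-fold in GFP (-0.53 ± 0.091, adjusted p = 0.00214). Without V5 replicate 1 the V5 value was -0.31 and not called (adjusted p = 0.0862). TH2A (Hist1h2aa) read 202 and 214 on input, 128 and 127 on IgG, 101 and 94.3 on V5, and 92.5 and 85.8 on GFP. Its 4 groups were ordered without overlap, with falls of 0.71 from input to IgG and of 0.39 and 0.52 from IgG to V5 and GFP on the log2 scale, all called. Against IgG, spike-in scaling moved the median of all genes from -0.206 to 0.158 in V5 and from -0.325 to 0.149 in GFP. That shift is about as large as the falls of H1t and TH2A against IgG, and with it no H2A gene was called lower.

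TH2B (Hist1h2ba) read 1.83 and 1.96 on input, 1.45 and 1.23 on IgG, 1.2 and 1.13 on V5, and 1.17 and 1.02 on GFP. It was lower in IgG than in input by 0.50 on the log2 scale (limma adjusted p = 0.00584), and its difference against IgG was -0.20 in V5, not called, and -0.29 in GFP (adjusted p = 0.049), which turned to 0.18 with spike-in scaling. The GFP call was lost in 6 of the 8 fits that left out 1 array, with values between -0.41 and -0.18, the smallest being -0.18 without IgG replicate 1 and -0.19 without GFP replicate 2 (adjusted p = 0.202 and 0.236). The testis genes ranked between the 28.2 and 52.3 percentile of all genes in both comparisons with IgG.

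The H2A genes were the class with the most calls against IgG. Of 9 genes, 7 were lower in V5 and 8 in GFP and 0 higher, where 40.4% and 52.1% of all genes were lower. The H2A medians were -0.366 and -0.473, which is -0.16 and -0.15 relative to all genes. With spike-in scaling they were 0 in both, with no H2A gene called lower. Hist1h2ab fell furthest: it read 0.622 and 0.559 on input, 0.502 and 0.387 on IgG, 0.261 and 0.299 on V5, and 0.269 and 0.275 on GFP, a log2 difference of -0.66 in V5 and -0.70 in GFP. Without V5 replicate 1 the V5 value was -0.56 and not called (limma adjusted p = 0.0543). Hist2h2aa1, the neighbour of Hist2h3c1, read 4.72 and 5.26 on input, 3.32 and 3.28 on IgG, 2.57 and 2.27 on V5, and 2.22 and 2.03 on GFP, lower in IgG than in input and lower again in V5 and GFP, while Hist2h3c1 rose from IgG to V5 and GFP. Without V5 replicate 2 the V5 difference of Hist2h2aa1, -0.45, was -0.36 and not called (adjusted p = 0.0524). Hist2h2aa2 stood apart, reading 0.0356 and 0.0452 on input, 0.0727 and 0.063 on IgG, 0.0899 and 0.0835 on V5, and 0.0691 and 0.0745 on GFP. Its differences of 0.36 and 0.08 against IgG were not called.

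For H2B, 0 of 7 genes were called in V5 against IgG by limma (0 at an unadjusted p under 0.05), with values between -0.20 and -0.09. In GFP 6 of 7 were lower, where 52.1% of all genes were, and the H2B median was -0.299. Relative to all genes the H2B medians were 0.06 and 0.03, and with spike-in scaling they were above 0, at 0.22 and 0.18. Of the 6 H4 genes, Hist1h4f and Hist1h4d were lower in both (-0.38 and -0.31 in V5, -0.32 and -0.25 in GFP) and Hist1h4a, Hist2h4 and Hist4h4 were not called. The class medians were -0.211 and -0.17, which is 0 and 0.16 relative to all genes. Both calls in GFP were lost in 7 of the 8 fits that left out 1 array, and both in V5 in 5 of 8. The values moved most without IgG replicate 1, to -0.23 and -0.18 in V5 and to -0.16 and -0.12 in GFP for Hist1h4f and Hist1h4d (limma adjusted p between 0.061 and 0.142). With spike-in scaling no H4 gene was called lower and 3 were called higher in GFP.

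Against input, most histone genes fell in all 3 precipitates, the IgG mock included. In IgG, 20 of 31 were lower and 5 higher, where 29.3% of all genes were lower and 43.9% higher. In V5, 23 were lower and 7 higher, where 35.6% of all genes were lower and 37.7% higher. In GFP, 24 were lower and 7 higher, where 39.1% of all genes were lower and 36.2% higher. The median histone difference was -0.602 in IgG, -0.846 in V5 and -0.972 in GFP, against 0.217, 0.00542 and -0.0595 for all genes. The comparisons share the input arrays. Relative to all genes the histone median was -0.82, -0.85 and -0.91. Spike-in scaling cannot change these values, since it shifts all genes alike within a comparison. It moved the medians of all genes to -0.576, -0.424 and -0.379. The share of higher calls over all genes went to 17.8%, 26.5% and 31%, from 59.9%, 51.4% and 48%. With normexp background correction the histone median was -0.602, -0.736 and -0.697, against 0.393, 0.304 and 0.258 for all genes.

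**Figure D3:**
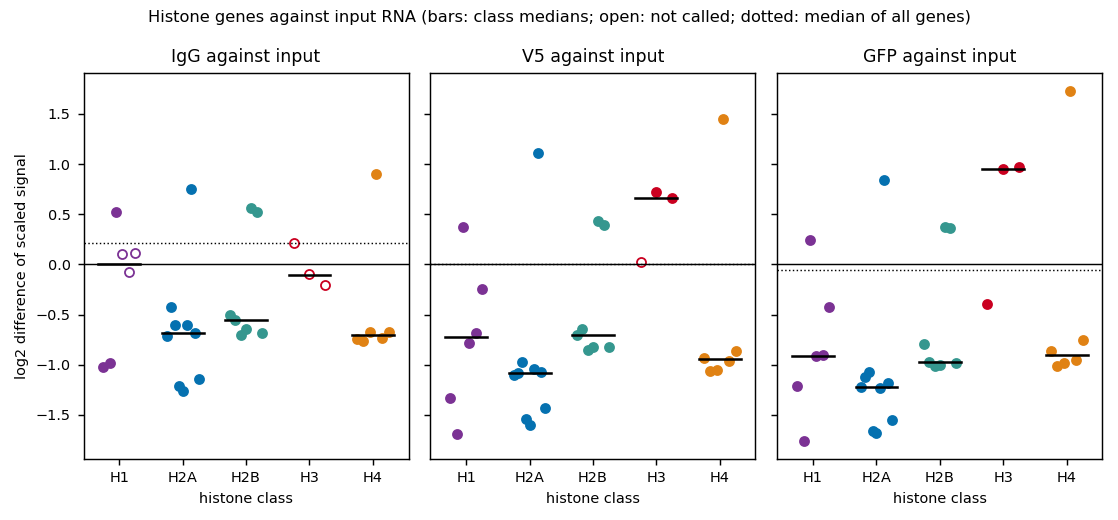
Log2 difference of scaled signal (y axis) of each measured histone gene against input, by class (x axis), in IgG, V5 and GFP; bars are class medians, open points were not called by limma and dotted lines are medians of all genes. H2A, H2B and H4 medians lie between -1.22 and -0.55 in all 3 panels and also below the dotted lines, and the H3 median lies at 0.66 in V5 and 0.95 in GFP, or 0.23 and 0.63 with spike-in scaling.

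By class, 8 of 9 H2A genes, 5 of 7 H2B genes and 5 of 6 H4 genes were lower than input in each of the 3 precipitates, and 1, 2 and 1 genes of these classes were higher. With spike-in scaling 8 H2A and 5 H4 genes were lower in each precipitate, and 7, 5 and 5 H2B genes were lower in IgG, V5 and GFP. The H2A median went from -0.683 in IgG to -1.08 in V5 and -1.22 in GFP. The H2B median was -0.553, -0.7 and -0.972, and the H4 median was -0.699, -0.946 and -0.905. The H1 genes took another course, with 2 of 6 lower in IgG (median 0.00808) and 5 of 6 lower in V5 and GFP (medians -0.727 and -0.909). With spike-in scaling all 6 H1 genes were lower in IgG, and relative to all genes the H1 median was -0.21 in IgG, -0.73 in V5 and -0.85 in GFP. For H3, 0 of 3 genes were called in IgG by limma (1 at an unadjusted p under 0.05), and Hist1h3d and Hist2h3c1 were 1.65-fold and 1.58-fold higher than input in V5 and 1.93-fold and 1.96-fold higher in GFP. With spike-in scaling the rises in V5 were 0.29 and 0.23 and no longer called (limma adjusted p = 0.0815 and 0.085).

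Within H2A, 3 genes fell further than the rest in the mock already. Hist1h2ai read 13.3 and 14.4 on input, 6.06 and 5.89 on IgG, 5.01 and 4.5 on V5, and 4.6 and 4.18 on GFP. Hist1h2ak read 23.6 and 26.5 on input, 10.6 and 10.4 on IgG, 8.85 and 7.64 on V5, and 8.37 and 7.24 on GFP. Together with Hist3h2a their log2 differences from input to IgG were between -1.26 and -1.14, while the other falling H2A genes lay between -0.71 and -0.42. A second probe of Hist1h2af was with the first set at -1.24, although the probe used for that gene was at -0.60. This grouping was noticed in the values.

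Hist1h2af and Hist2h2ac, which have high signals, read 193 and 208, and 149 and 166, on input. They fell to 134 and 129, and 97.3 and 99, on IgG and to 97.4 and 92.8, and 72.4 and 66.9, on GFP. No array overlapped between input and IgG or between IgG and GFP in either gene. Replicates of these genes differed by far less than the groups.

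The 5 genes higher in IgG than in input were Hist1h4i, Hist1h1c, Hist2h2aa2, Hist2h2be and Hist3h2ba, and all 5 were also higher in V5 and GFP, which share the input arrays. Hist2h2be, an H2B gene, read 0.448 and 0.46 on input, 0.685 and 0.654 on IgG, 0.608 and 0.613 on V5, and 0.599 and 0.575 on GFP. It was 1.47-fold higher in IgG (log2 difference 0.56 ± 0.064 SE, limma adjusted p = 0.000258), 1.34-fold in V5 and 1.29-fold in GFP, and its chromosome 3 neighbour Hist2h2ac fell in all 3. Hist3h2ba read 0.266 and 0.269 on input, 0.371 and 0.397 on IgG, 0.338 and 0.364 on V5, and 0.339 and 0.347 on GFP. For both H2B genes IgG was the highest group. These rises depend on the scaling: with spike-in probes 0 histone genes were higher in IgG than in input, where 29 were lower, and 2 and 4 were higher in V5 and GFP.

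In the authors' deposited table of group means, 25 members could be set beside these values. Their sign was the same for 25 in GFP against input and for 24 in V5 against input, Hist1h1t being the exception at 0.03 in the authors' deposited table and -0.25 here. The ratios of the authors' deposited table were higher by a median of 0.29 and 0.28 on the log2 scale in GFP and V5.

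V5 and GFP, which lie on the same slide, differed little over the histone genes. Of 31 genes 1 was higher and 1 lower in V5, where 6.8% of all genes were higher and 7.19% lower. Hist1h2bc, an H2B gene, read 0.608 and 0.534 on V5 and 0.451 and 0.456 on GFP, a log2 difference of 0.33 (limma adjusted p = 0.0484). Hist1h4i was lower in V5 by 0.29 (adjusted p = 0.0456). Both are close to the threshold, and both calls were lost when any input, V5 or GFP array was left out. In fits without 1 array the differences lay between 0.24 and 0.42 for Hist1h2bc and between -0.34 and -0.24 for Hist1h4i. With spike-in scaling 0 histone genes were higher and 2 lower, and 9.65% of the calls over all genes were higher in place of 48.6%. The histone median was 0.107 against 0.0888 for all genes.

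Several probes were kept for 5 genes, and in 3 of them the probes disagreed in sign. Hist3h2a has 3: the probe used, the brightest, read 24.8 and 28.7 on input, 12.4 and 11.8 on IgG, 10.7 and 9.2 on V5, and 9.45 and 8.79 on GFP. A second read 1.49 and 1.46 on input, 1.44 and 1.35 on IgG, 0.927 and 1.03 on V5, and 0.86 and 0.851 on GFP. The last, with the same accession as the first, read 2.78 and 2.74 on input, 4.63 and 4.55 on IgG, 5.28 and 4.94 on V5, and 5.65 and 5.78 on GFP. In V5 against input they gave -1.43, -0.59 and 0.89 on the log2 scale, each with an adjusted p under the threshold in a limma fit over all kept probes. The last probe rose in every precipitate relative to the 75th percentile while the first fell in every one, so the direction of Hist3h2a depends on the probe.

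Hist1h4d has 2 probes. The one used read 11.5 and 11.2 on input, 7.34 and 6.16 on IgG, 5.51 and 5.38 on V5, and 5.73 and 5.57 on GFP. The other read 2.11 and 2.1 on input, 0.429 and 0.903 on IgG, 0.787 and 0.798 on V5, and 0.821 and 0.739 on GFP. Both fell against input, but the IgG arrays of the second probe differed widely, and against IgG it gave 0.35 in V5, not called, beside -0.31 for the first. The mean of both gave 0.02 in V5 and 0.04 in GFP. For Hist2h2aa2 the second probe gave -0.42 in IgG against input beside 0.75 for the one used, and it was not well above background on IgG arrays. The probes of Hist1h2af and Hist1h2bk had the same sign in the comparisons with IgG and with input.

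**Figure D4:**
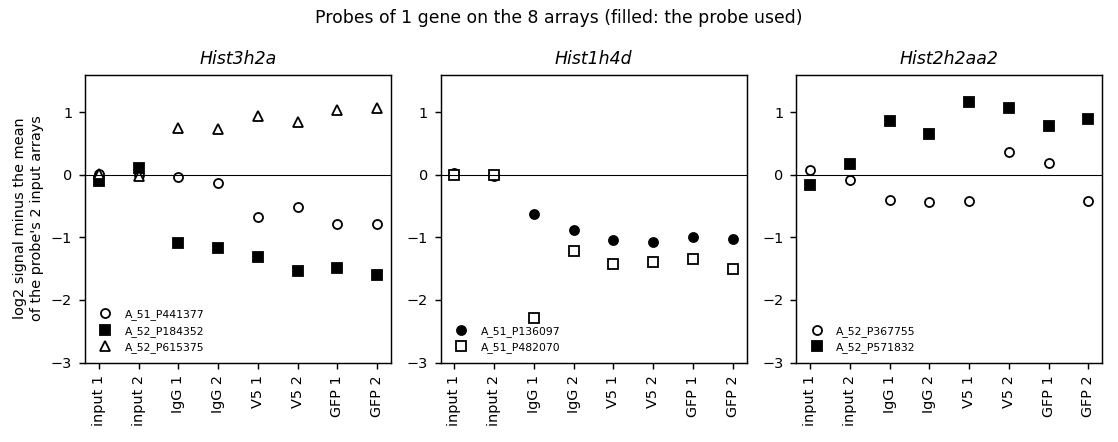
Log2 scaled signal minus the mean of the 2 input arrays (y axis) for each kept probe of 3 genes on the 8 arrays (x axis); filled symbols are the probe used. For Hist3h2a 1 probe lies above 0 and the others below on all V5 and GFP arrays, and the second probe of Hist1h4d is far apart on its IgG arrays (0.429 and 0.903 times the 75th percentile).

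Related genes outside the replication-dependent set were read for comparison. Of 10 measured replication-independent core variants, 5 were higher and 1 lower in V5 than in IgG, and 9 were higher and 1 lower in GFP, with medians of 0.359 and 0.761 against -0.206 and -0.325 for all genes. Over all genes 16.7% were higher and 40.4% lower in V5, and 21.6% and 52.1% in GFP. H3f3a and H3f3b, which both encode the replication-independent H3.3, were 2.2-fold and 1.92-fold higher in V5 and 3.02-fold and 2.33-fold higher in GFP (limma adjusted p between 8.21e-05 and 0.00124). H2afz was 1.56-fold and 2.11-fold higher, and Cenpa, the H3 variant of centromeres, 1.63-fold and 2.69-fold. H2afj was lower, by 0.35 and 0.48 on the log2 scale. The rising H3 genes Hist1h3d and Hist2h3c1 thus stood beside H3f3a and H3f3b in direction, and the H2A genes did not stand beside H2afz. Of 4 measured replication-independent or germline linker genes, 0 were higher, 2 were lower in V5 and 3 in GFP. Among the lower ones were H1fx (-0.59 and -0.84) and H1foo, the oocyte linker (-0.85 and -1.05). With spike-in scaling 0 of the 4 were higher and 1 lower in V5, and 1 was higher and 1 lower in GFP.

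**Figure D5:**
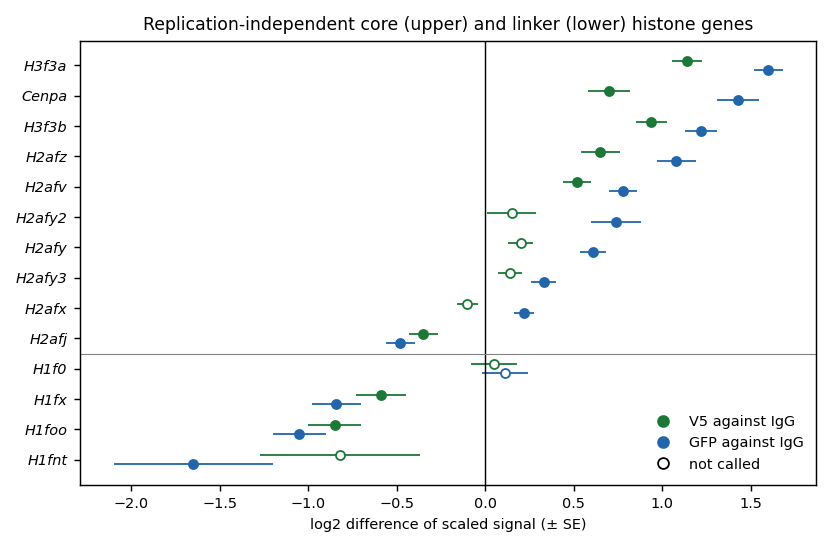
Log2 difference of scaled signal (x axis, ± SE, 2 arrays a group) of 10 core and 4 linker histone genes that are not replication-dependent (y axis) in V5 and GFP against IgG; filled points were called by limma, and H1fnt was not well above background in GFP. H3f3a lies furthest to the right at 1.14 and 1.6, and with spike-in scaling the zero of both comparisons moves so that the median of all genes goes from -0.206 to 0.158 and from -0.325 to 0.149.

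Of 32 measured genes for factors that process, bind or degrade histone mRNA, 11 were higher and 9 lower in V5 than in IgG, and 12 were higher and 10 lower in GFP, where over all genes 16.7% were higher and 40.4% lower in V5 and 21.6% and 52.1% in GFP. Their medians were 0.000718 and -0.0464, against -0.206 and -0.325 for all genes. Slbp, whose protein binds the stem-loop of histone mRNA, was 2.63-fold higher in V5 (log2 difference 1.39 ± 0.1 SE, limma adjusted p = 0.000791) and 3.65-fold in GFP (1.87 ± 0.1, adjusted p = 8.6e-05). Cstf2t, a testis form of a cleavage factor, was 1.96-fold and 2.84-fold higher, and Ncbp2, a subunit of the cap-binding complex, 1.81-fold and 2.66-fold. Cpsf1, a subunit of the factor that cleaves pre-mRNA, was 1.42-fold and 1.84-fold lower. Of 24 histone chaperones and assembly factors, 7 were higher and 6 lower in V5, and 8 were higher and 11 lower in GFP. Nap1l1 was 1.94-fold and 2.77-fold higher, and Asf1b, a chaperone of H3 and H4, 1.5-fold and 2.18-fold, while Chaf1a, a subunit of chromatin assembly factor CAF-1, was 1.36-fold and 1.68-fold lower. Of 37 genes of DNA replication and S phase, 11 were higher and 7 lower in V5, and 14 were higher and 14 lower in GFP. Dbf4, a partner of the kinase Cdc7, was 1.64-fold and 2.04-fold higher, and Pold1, the catalytic subunit of DNA polymerase delta, 1.38-fold and 1.67-fold lower. The lower genes of these lists were picked after their values were seen. With spike-in scaling 17, 13 and 25 genes of the 3 lists were higher and 0 lower in V5, and in GFP 24, 13 and 23 were higher and 1, 2 and 1 lower. In IgG against input, where 43.9% of all genes were higher and 29.3% lower, 10 histone mRNA factors were higher and 16 lower, 9 chaperones were higher and 10 lower, and 14 S phase genes were higher and 15 lower.

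Markers of cell types were read on the same arrays. All 10 Sertoli markers were measured, and their summed level was 243 and 249 on input, 227 and 229 on IgG, 178 and 168 on V5, and 148 and 156 on GFP. In V5 and GFP against IgG, 9 and 10 of these 10 were lower, as were 5 and 5 of 5 Leydig, 5 and 5 of 5 myoid, 5 and 4 of 6 leukocyte, 4 and 5 of 5 endothelial and 2 and 3 of 3 erythroid markers, and none of these was higher, where 40.4% and 52.1% of all genes were lower. The median of the Sertoli markers was -0.367 in V5 and -0.643 in GFP, against -0.206 and -0.325 for all genes, and with spike-in scaling it was 0 and -0.17, with 1 of 10 lower and 1 higher in V5 and 3 lower in GFP. With that scaling none of the Leydig, myoid, leukocyte, endothelial and erythroid markers was called lower in V5, and 1, 3, 2, 1 and 1 were in GFP. Summed levels in GFP were below those in IgG for each of these lists, at 16.9 and 19.8 against 26.5 and 28.6 for Leydig, 18.8 and 19.7 against 32.2 and 37.4 for myoid, 2.96 and 3.32 against 5.21 and 6.27 for leukocyte, 1.13 and 1.14 against 1.66 and 1.8 for endothelial, and 28.8 and 30 against 44.2 and 40.5 for erythroid markers. Of the 6 spermatid, 6 Leydig, 7 leukocyte and 4 erythroid markers listed, 1 each was not measured. Of 5 measured spermatid markers 3 and 4 were lower. Of 7 germ cell markers 4 were higher and 1 lower in both, where 16.7% and 21.6% of all genes were higher. The list was Ddx4, Dazl, Sycp3, Sycp1, Mael, Tex101 and Stra8, so it holds the mRNA of the tagged protein itself. In precipitates of Dazl, binding and germ cell content cannot be told apart for these markers. Their summed levels were 316 and 320 on input, 294 and 255 on IgG, 254 and 267 on V5, and 265 and 254 on GFP. Against input, 6, 6 and 5 of the 7 were lower in IgG, V5 and GFP, and 1, 0 and 0 higher. Over all genes 29.3%, 35.6% and 39.1% were lower there. The part of other cell types in the histone differences was not tested. These levels are of RNA in each total or precipitated sample and do not count cells.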

How the data were processed

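The scanner files of 8 one-colour arrays hold intensity values which, per the file headers, the authors obtained from Agilent's Feature Extraction, version 9.1.3.1, with background subtraction and no scaling between arrays. A deposited table of the series holds signal values as group means of input, V5 and GFP; the authors made them in GeneSifter with median normalization, per its comment lines, and 6 further value columns were left unused. Processed signals were put on the log2 scale and centred on each array's 75th percentile of non-control spots. Flagged outlier spots were dropped and repeat spots averaged. A probe was kept if it was well above background on the 2 arrays of any group, and the brightest kept probe represented its gene, for 17580 genes. One model of 4 groups was fitted with limma (version 3.58.1, R 4.3.3; moderated with 4 residual plus 2.41 prior degrees of freedom). The 6 comparisons were tested two-sided at 0.05 after Benjamini-Hochberg adjustment across all genes, and every adjusted p is from limma. With 2 arrays a group, their number limits the precision. The fit was tested on simulated data in which few genes changed, unlike here. In V5 against IgG it recovered 39 of 100 log2 changes of 0.5 and 81 of 100 changes of 1. There were 11 false calls among the unchanged genes.

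The members and all gene lists were chosen with earlier results of these data known. Named were all H1 genes and the testis genes, the 2 highest and 2 lowest of each other class in V5 and GFP against IgG, up to 5 called genes with the smallest p each way in each comparison, up to 4 genes of each other list, and all probes of genes whose probes differ in sign; a part is printed. The grouping within H2A and the neighbours were picked after their values were seen. Alternatives were normexp (offset 50), spike-in (8 probes) and quantile scaling, no filter on dim probes, means of probes, fits of only 2 groups, a replicate block, leaving out arrays, and, chosen after seeing the data, local background subtraction. Probe sequences were not used here.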

Additional observations from a re-analysis of the deposited data

How the results depend on the processing

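Spike-in scaling shifted all genes alike within a comparison and turned the sign of 55 of 186 single differences, 32 of them called before or after. Histone genes higher and lower were then 5 and 1 in V5 against IgG, 8 and 2 in GFP against IgG, 0 and 29 in IgG against input, 2 and 24 in V5 against input, 4 and 24 in GFP against input, and 0 and 2 in V5 against GFP. In V5 against IgG 17 of 31 signs turned, 4 of them called before or after, namely Hist1h2ai 0.03, Hist1h2ak 0.01, Hist1h2bc 0.27 and Hist1h4d 0.06. In GFP against IgG 18 turned, those called before or after being Hist1h1c 0.19, Hist1h2af 0, Hist1h2ai 0.03, Hist1h2ak 0.05, Hist1h2ba 0.18, Hist1h2bc 0.06, Hist1h2bk 0.17, Hist1h2bm 0.12, Hist1h4a 0.35, Hist1h4d 0.22, Hist1h4f 0.16, Hist2h2be 0.28, Hist3h2a 0.06, Hist3h2ba 0.31, Hist3h2bb 0.18 and Hist4h4 0.39. In IgG against input 7 turned, all called before or after, namely Hist1h1c -0.27, Hist1h1d -0.69, Hist1h1t -0.68, Hist1h3a -0.59, Hist2h2aa2 -0.04, Hist2h2be -0.23 and Hist3h2ba -0.27. In V5 against input these were Hist1h1c -0.06, Hist1h3a -0.41, Hist2h2be 0 and Hist3h2ba -0.04, and in GFP against input Hist1h1c -0.08. In V5 against GFP 8 turned, none called before or after. With normexp 0 histone genes were called in V5 against IgG by limma (3 at an unadjusted p under 0.05, and 0 of all 17580 genes), 2 higher and 0 lower in GFP against IgG, 3 higher in IgG against input, 2 higher in V5 and 2 in GFP against input, and 0 in V5 against GFP (0 at an unadjusted p under 0.05). With normexp 8 signs turned, 4 of them called before or after, to 0.56 for Hist1h1d and 0.13 for Hist1h1t in V5 against input and to 0.44 for Hist1h1d and 0.33 for Hist1h3a in GFP against input. Its fitted background was -391 and -333 on the second V5 and GFP arrays and between -92.5 and -10.9 on the others; the cause was not tested. The mean of a gene's probes gave 0.02 for Hist1h4d in V5 and 0.04 in GFP against IgG. Fits of only the 2 groups compared gave 8 lower in V5 against IgG, and leaving out both arrays of conflicting description gave 1 higher and 1 lower there, where 1249 of all genes were called in place of 10033; both use fewer arrays.

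In V5 against GFP the counts of higher and lower genes were 0 and 2 with quantile normalization and with local background subtraction, 0 and 1 with means of probes, and 0 and 0 with no filter, with only those 2 groups and without both arrays of conflicting description. Leaving out 1 array at a time gave 3 to 4 higher and 6 to 15 lower genes in V5 against IgG, 3 higher and 13 to 26 lower in GFP against IgG, 5 to 6 and 19 to 21 in IgG against input, 7 and 22 to 23 in V5 against input, 6 to 7 and 23 to 24 in GFP against input, and 0 to 2 and 0 to 1 in V5 against GFP. Over single genes and comparisons, 86 of 1488 results then lost a call and 16 gained one, and 17 turned sign, none of them called before or after. No pairing of arrays by replicate number was seen in the values: replicate differences correlated between -0.0753 and 0.107 across groups. Such low values cannot show that arrays of the same number were prepared apart. With the replicate block 3 genes were higher and 13 lower in V5 against IgG, 3 higher and 21 lower in GFP against IgG, and 0 were called in V5 against GFP (4 at an unadjusted p under 0.05), the other counts differing by at most 1. Other counts stayed within 1.5 times.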
